A study of Mus musculus with 12 samples.

Results

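The genes described here are those whose products carry peptides to the cell surface for T cells to read, in mouse cochlear glial cells and in the cells differentiated from them. They were taken by symbol: every gene whose name starts with H2-, which marks the mouse major histocompatibility complex (MHC), together with B2m, Tap1, Tap2, Tapbp, Ciita, Cd74, Psmb8, Psmb9, Psmb10, Nlrc5 and Erap1. This gave 56 genes of the 55487 in the table, and 50 of them lie on chromosome 17. By role, 33 are class I genes with B2m, 13 are class II genes with Cd74, 7 supply peptides to class I molecules, 2 are transactivators (Nlrc5 and Ciita), and H2-Ke6 lies in the region but encodes no MHC chain.

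Poly(A) RNA was sequenced from 12 libraries, 3 in each of 4 groups, all from cultured cochlear cells of postnatal day 4 mice on a mixed C57Bl6 and FVB/N background. These strains carry different H2 haplotypes, and the haplotype behind each library was not tested. The starting group, spheres, was grown in suspension from dissociated modiolus tissue pooled over several mice, with EGF at 20 ng/ml, bFGF at 10 ng/ml, IGF at 50 ng/ml and heparan sulfate at 50 ng/ml. The other 3 groups were plated spheres differentiated for 14 days. SCDM, built on DMEM/F12, held 50 ng/ml of the neurotrophins BDNF and NT3, and SCDM/FGF held 100 ng/ml of bFGF as well. The base of FIBCL was Neurobasal, with bFGF (50 or 100 ng/ml, since the labels list both) and no listed BDNF or NT3. To it were added the adenylate cyclase activator Forskolin and the small molecule ISX9 at 20 μM each, 10 μM of the GSK3 inhibitor CHIR99021, 1 μM of the BET bromodomain inhibitor I-BET, and the cytokine LIF at 1000 U/ml. Base medium, growth factors and small molecules therefore changed together between SCDM and FIBCL and cannot be told apart. The table heads the FIBCL columns FIBC, which elsewhere in the study means a LIF-free mixture. The columns were assigned to FIBCL because no other sample title fits. The labels call the libraries of a group biological replicates but name no separate animals, so p-values measure only the spread between these libraries, which may be technical.

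The labelled cell types were checked against marker genes. The summed level of 9 cochlear glia markers was 501 to 521 in spheres, 192 to 219.6 in SCDM, 165 to 203 in SCDM/FGF and 17.2 to 23.4 in FIBCL, in scaled TPM (a relative transcript level that is already divided by transcript length). The sum of 9 neuron markers was 20.1 to 35.0 across the 9 libraries outside FIBCL and 494 to 533 in FIBCL. The cultures also held RNA of other cells: the sum of 18 macrophage markers was 677 to 834 in spheres, 6101 to 6678 in SCDM, 6267 to 6683 in SCDM/FGF and 232 to 274 in FIBCL, and that of 8 fibroblast markers was 2591 to 2629, 5927 to 6184, 5436 to 5803 and 138 to 149.99 in the same order. Most of that FIBCL sum was Twist1 (103 to 119), which was called higher in FIBCL than in each other group, unlike the other 7. In such bulk RNA, fewer cells of a type and less RNA per cell cannot be told apart.

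Class I molecules are present on nearly all nucleated cells. Each is a heavy chain, encoded by H2-K1, H2-D1 or a less classical H2-Q, H2-T or H2-M gene, bound to the light chain beta-2-microglobulin (B2m). Their peptides are cut by the proteasome, pumped into the endoplasmic reticulum by the Tap1 and Tap2 transporter, trimmed by Erap1 and loaded with the help of tapasin (Tapbp), and interferons raise most of these genes through IRF1 and the transactivator Nlrc5. Class II molecules pair an alpha with a beta chain, such as H2-Aa with H2-Ab1, travel with the invariant chain Cd74, receive peptides in endosomes with the help of H2-DM, and depend on the transactivator Ciita. They are typical of professional antigen-presenting cells such as dendritic cells, B cells and macrophages, and most neurons express little of either class.

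The regions upstream of the RefSeq starts of class I genes are shown because Nlrc5, interferon and NF-kB signals act there. In H2-K1, an NF-kB-like and an interferon-response-like motif lie in a block of 30 bases. The block or a variant of it was found in the RefSeq promoter entries (build GRCm38.p6) of 5 further class I genes. It lies at chr17:34000429-34000458 for H2-K1 (minus strand) and chr17:35262923-35262952 for H2-D1, chr17:35424677-35424706 for H2-Q6, chr17:35379443-35379472 for H2-Q4, chr17:35469913-35469942 for H2-Q10 and chr17:35439021-35439050 for H2-Q7 (plus strand). For H2-D1 it is upstream of the RefSeq start but inside the longer gene model used for positions below, which starts at 35262730. Capitals mark bases that differ from H2-K1.

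H2-K1: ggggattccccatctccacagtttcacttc
H2-D1: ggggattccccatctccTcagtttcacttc
H2-Q6: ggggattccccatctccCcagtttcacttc
H2-Q4: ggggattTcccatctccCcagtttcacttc
H2-Q10: gAggaCtccccatctccCcagtttcacttc
H2-Q7: TgggGAtTcccatctccCcagtttcacttc

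Counted from 1 at the 5′ end of the block, H2-D1 carries A18T, H2-Q6 carries A18C, H2-Q4 carries C8T and A18C, H2-Q10 carries G2A, T6C and A18C, and H2-Q7 carries G1T, A5G, T6A, C8T and A18C. H2-D1 and H2-K1 therefore differ by 1 base in this block. No gap was allowed in these comparisons. The H2-Q7 block still holds the NF-kB-like motif, shifted by 1 base from its place in H2-K1.

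For comparison of class I with class II, the stretches directly upstream of the annotated starts of H2-K1 (chr17:34000348-34000597, minus strand), B2m (chr2:122147437-122147685, plus strand) and H2-Aa (chr17:34287824-34288073, minus strand) are given. Capitals mark matches on either strand to an NF-kB-like motif, TTTCNNTTC, CCAAT or TGACG, so that CCAAT appears as ATTGG where it lies on the other strand. Overlapping matches are joined. The NF-kB-like motif is the first run of capitals in H2-K1 without its last base, with the sixth base free. That run is longer than the motif because it joins overlapping matches on both strands.

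H2-K1: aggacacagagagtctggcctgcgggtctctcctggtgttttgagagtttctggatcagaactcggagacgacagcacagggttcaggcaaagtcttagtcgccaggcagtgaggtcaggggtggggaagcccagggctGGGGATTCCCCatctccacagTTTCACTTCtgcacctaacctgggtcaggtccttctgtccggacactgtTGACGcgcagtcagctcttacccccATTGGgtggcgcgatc
B2m: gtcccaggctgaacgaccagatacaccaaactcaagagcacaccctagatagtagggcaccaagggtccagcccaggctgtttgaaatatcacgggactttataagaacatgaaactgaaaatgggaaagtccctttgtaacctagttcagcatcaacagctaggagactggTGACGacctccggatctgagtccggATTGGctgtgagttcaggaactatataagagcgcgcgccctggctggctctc
H2-Aa: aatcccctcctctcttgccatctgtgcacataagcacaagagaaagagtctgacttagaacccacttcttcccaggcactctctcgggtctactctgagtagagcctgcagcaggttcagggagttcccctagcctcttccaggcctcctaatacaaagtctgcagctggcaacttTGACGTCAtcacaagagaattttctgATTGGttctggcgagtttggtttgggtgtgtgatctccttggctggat

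The RefSeq table held promoter entries of 300 bases for 39 of the 56 genes, and 24 of the genes tested had one. The NF-kB-like motif was found in the entries of 4 of 12 tested class I genes (H2-D1, H2-K1, H2-Q6 and H2-Q7), 0 of 5 class II genes and 0 of 6 peptide supply genes, against 0.323% of all 32851 promoters. TTTCNNTTC was found in 7 of 12, 0 of 5 and 0 of 6, against 7.52% of all promoters. CCAAT stood in 10 of 12, 4 of 5 and 3 of 6, against 37.4%, and TGACG in 7 of 12, 1 of 5 and 2 of 6, against 20.8%. These are matches of letters in a window and show no binding. H2-Ab1, Cd74, Nlrc5, Ciita and Tap2 had no entry.

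Of the 56 genes, 34 had at least 1 TPM in at least 3 libraries and were tested. They comprise 18 class I genes, 7 class II genes, all 7 peptide supply genes, Nlrc5 and H2-Ke6. Among the 22 others, 10 were listed at 0 in every library and the highest value was 1.2 TPM. The class I genes below the limit were H2-Q2, H2-Q3, H2-T3 and 12 H2-M genes, and the class II genes were H2-Ea, H2-Eb2, H2-Oa, H2-Ob, H2-Pa and H2-Pb, with a highest value of 0.23 TPM. Levels below are scaled TPM, the deposited TPM divided by 1 factor per library, and differences are on the log2(scaled TPM + 1) scale, which understates changes of low genes. A gene was called when limma gave a Benjamini-Hochberg adjusted p under 0.05 over all 16016 genes tested and the log2 difference was at least 1 in size.

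Between FIBCL and SCDM, the class I genes, the class II genes and the peptide supply genes had different patterns. Of 18 class I genes, 5 rose and 0 fell in FIBCL, although H2-K2 (−0.95) passed the fold limit under 5 alternatives, without rescaling among them (−1.19). Of 7 class II genes, 2 rose and 4 fell, and of 7 peptide supply genes, 0 rose and 6 fell. The medians were 0.41 for class I, −1.13 for class II and −2.47 for peptide supply, beside −0.08 for all genes tested. Over all 34 genes tested, 8 were higher and 10 lower, 18 in all, where 29.5% of all genes tested were called in either direction, 13.1% higher and 16.4% lower. Without rescaling, the median of all genes between FIBCL and SCDM was −0.40, and the class I counts became 2 higher and 1 lower with a median of 0.041, while those of class II were 1 higher and 4 lower and those of peptide supply were again 0 and 6. Over all genes tested, the split without rescaling was 1490 higher and 3726 lower, beside 2100 and 2625 with it. Relative to the median of all genes, class I was above and peptide supply below it on both scales.

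**Figure D1:**
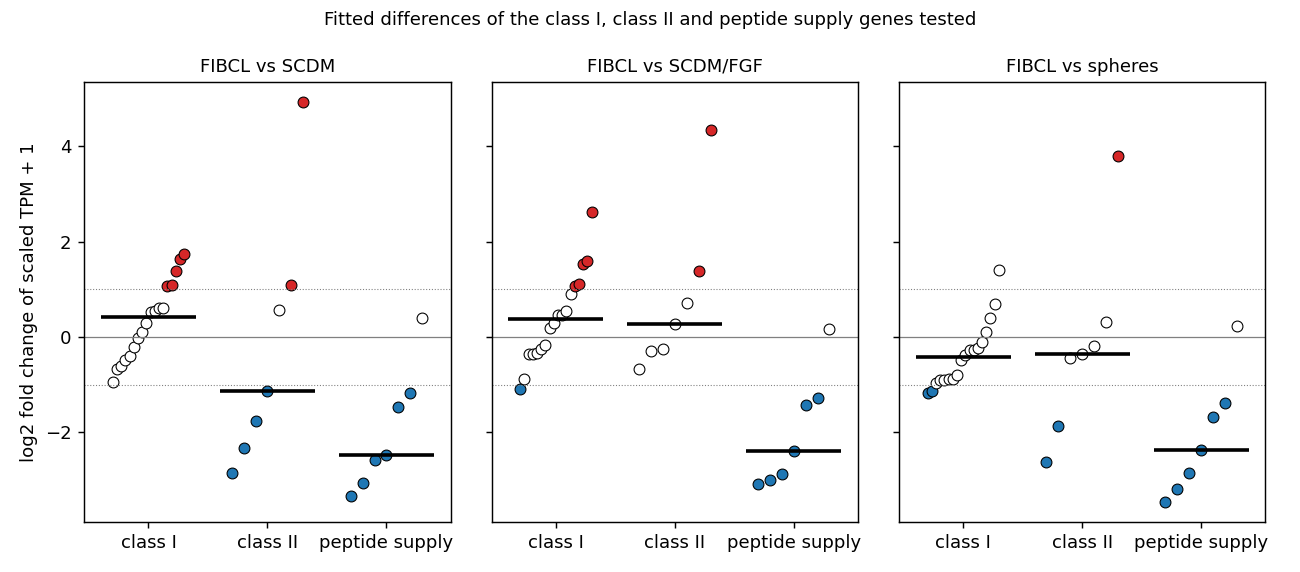
Fitted log2 differences (vertical axis, log2 of scaled TPM + 1) of the class I, class II and peptide supply genes tested, for FIBCL against SCDM, SCDM/FGF and spheres; each point is 1 gene, filled points are called (red higher, blue lower), open points are not, bars are medians and dotted lines mark a log2 difference of 1. H2-Ab1 stands alone at the top of class II in all 3 panels, and 6 of 7 peptide supply genes lie at or below −1.17, with Tap1 near 0.

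The classical class I heavy chains H2-K1 and H2-D1 were among the most abundant of these transcripts in every group. H2-D1 (chr17:35262730-35267499) was at 1446, 1502 and 1397 in spheres, at 679, 739 and 798 in SCDM, at 889, 892 and 884 in SCDM/FGF, and at 1875, 1967 and 1923 in FIBCL. On this scale the FIBCL libraries were the highest and the SCDM libraries the lowest, without overlap, whereas in deposited TPM the spheres (1615 to 1669.5) lay above FIBCL (1429 to 1559). H2-D1 rose by 1.38 in FIBCL over SCDM (SE 0.0542, adjusted p = 8.81e-10), which is 2.60-fold, and by 1.11 over SCDM/FGF (adjusted p = 6.04e-09). Without rescaling these became 0.99 and 0.81, below the fold limit, with adjusted p of 2.0e-08 and 1.4e-07. Against spheres the difference was 0.41 (adjusted p = 3.57e-05), below the fold limit, and −0.13 without rescaling (adjusted p = 0.0593).

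H2-K1 (chr17:33996017-34000347) was at 1414, 1472 and 1340.5 in spheres, 757, 783 and 896 in SCDM, 874, 840.4 and 836 in SCDM/FGF, and 1128, 1205 and 1163 in FIBCL. FIBCL lay between spheres and the control media, without overlap, but in deposited TPM it (864 to 956) overlapped SCDM (770.5 to 919.9). The difference from SCDM was 0.52 (SE 0.0617, adjusted p = 1.22e-05), or 0.13 without rescaling (adjusted p = 0.0833), and that from spheres −0.27 (adjusted p = 0.00196), neither of which reached the fold limit. The 2 classical chains thus moved by different amounts. The ratio of H2-D1 to H2-K1 within a library, which no scaling can alter, was 1.02 to 1.04 in spheres, 0.891 to 0.943 in SCDM, 1.02 to 1.06 in SCDM/FGF and 1.63 to 1.66 in FIBCL. RSEM, with which the authors quantified genes, divides reads that fit several genes, and 6.71% of 75-base windows of the H2-D1 transcript and 1.55% of those of H2-K1 occur in another gene of the group.

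B2m (chr2:122147686-122153083), the light chain shared by all class I molecules, was lower in FIBCL than in both control media, whereas H2-D1 was higher. B2m was at 3326, 3746 and 3441 in spheres, 2502, 2340.4 and 2611 in SCDM, 2069, 2149 and 2105 in SCDM/FGF, and 1791, 1942 and 1918 in FIBCL. FIBCL had the lowest B2m of the 4 groups, and no groups overlapped. Its differences from SCDM (−0.40, SE 0.0576, adjusted p = 6.8e-05), from SCDM/FGF (−0.16, adjusted p = 0.0253) and from spheres (−0.89, adjusted p = 7.03e-08) were all under the fold limit. Without rescaling they were −0.79, −0.47 and a called −1.43, with adjusted p of 4.0e-08, 4.83e-06 and 2.25e-10. The sum of all class I heavy chains was 3173 to 3480.2 in spheres, 1672 to 1951 in SCDM, 1922.5 to 1994 in SCDM/FGF and 3257 to 3446 in FIBCL, so that FIBCL overlapped spheres and stood above both control media. In deposited TPM the FIBCL sum (2497 to 2732) was again above both media but below spheres (3667 to 3868). Within a library, the ratio of B2m to the heavy chains was 1.01 to 1.08 in spheres, 1.32 to 1.50 in SCDM, 1.04 to 1.11 in SCDM/FGF and 0.550 to 0.571 in FIBCL. B2m made up 50.1 to 52.0% of the class I sum in spheres and 35.5 to 36.3% in FIBCL.

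**Figure D2:**
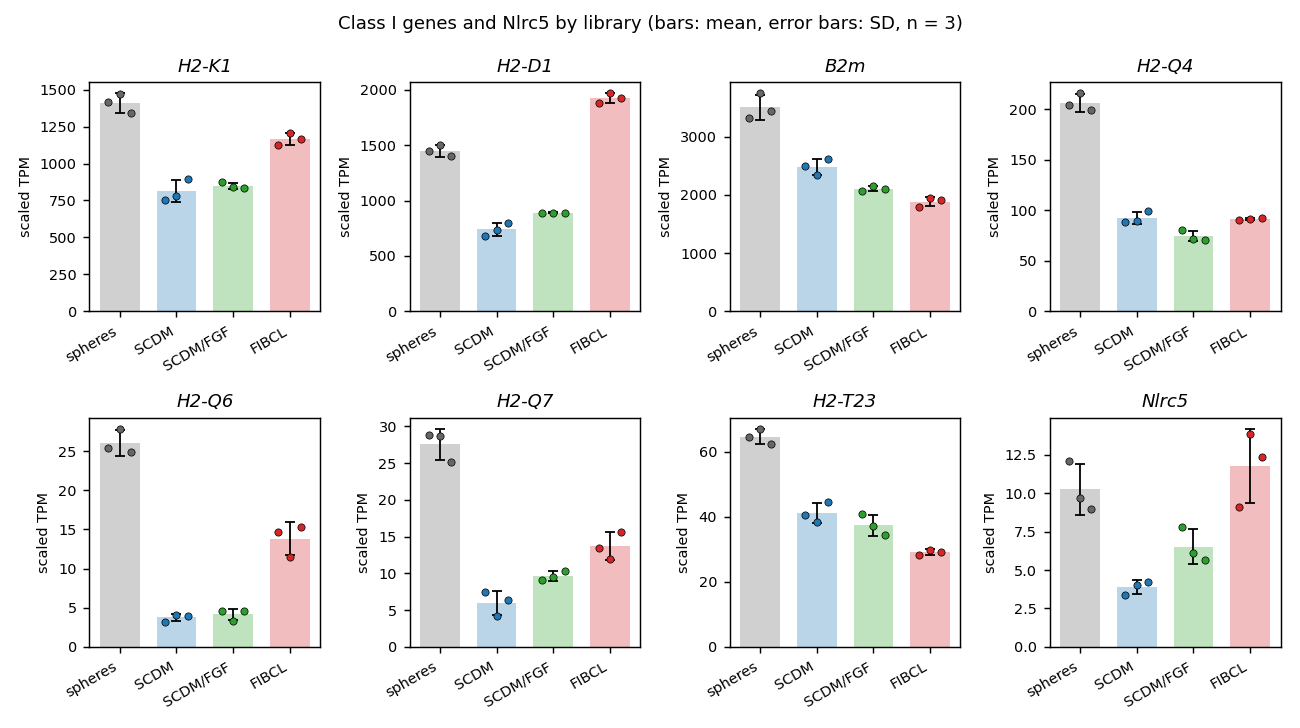
Scaled TPM (vertical axes) of 7 class I genes and the class I transactivator Nlrc5 in the 4 groups; points are libraries, bars are group means and error bars are SD over 3 libraries. H2-D1 is highest in FIBCL at 1922 on average (in deposited TPM it is highest in spheres), B2m is lowest there at 1884, and H2-Q6 and H2-Q7 are highest in spheres.

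Of the class I genes in the Q region, H2-Q6 was at 25.4, 27.9 and 24.9 in spheres, 3.23, 4.13 and 3.90 in SCDM, 4.53, 3.33 and 4.63 in SCDM/FGF, and 14.7, 11.5 and 15.3 in FIBCL. The differentiated controls were lowest, FIBCL intermediate and spheres highest, and only the controls overlapped each other. H2-Q6 rose by 1.64 over SCDM (SE 0.132, adjusted p = 4.5e-07) and by 1.52 over SCDM/FGF (adjusted p = 9.17e-07). H2-Q7, which with its neighbours encodes the nonclassical Qa-2 antigen, was at 28.8, 28.7 and 25.1 in spheres, 7.39, 4.20 and 6.42 in SCDM, 9.05, 9.56 and 10.3 in SCDM/FGF, and 13.4, 11.9 and 15.6 in FIBCL, and differed from SCDM by 1.09 (adjusted p = 7.04e-05). In FIBCL, H2-Q5 was at 6.28, 5.76 and 4.70, above its SCDM values of 0.923, 0.857 and 1.14, and rose by 1.73 (adjusted p = 0.000107). H2-Q10 rose by 1.08 (adjusted p = 0.000125). The H2-Q7 and H2-Q10 calls were lost without rescaling (0.73 and 0.82) and without single libraries: H2-Q7 gave 0.99 without FIBCL replicate 3 and 0.89 without SCDM replicate 2, and H2-Q10 gave 0.94 without FIBCL replicate 3 and 0.99 without SCDM replicate 3. How reads were divided among these near-copies is uncertain: 21.5% of 75-base windows in H2-Q7, 20.7% in H2-Q5, 15.5% in H2-Q6 and 17.3% in H2-Q1 recur in another member.

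The other class I genes differed less between FIBCL and SCDM. The FIBCL values of H2-Q4 were 90.1, 91.5 and 92.6 and the SCDM values 88.8, 89.6 and 98.7, which overlapped (−0.014, adjusted p = 0.842, or −0.40 with adjusted p = 0.000133 without rescaling). H2-Q4 was at 204, 216 and 199 in spheres, from which FIBCL fell by 1.16 (adjusted p = 7.07e-09). H2-T23, which encodes the nonclassical molecule Qa-1 that NK cell receptors read, was at 28.1, 29.9 and 29.1 in FIBCL, 40.6, 38.4 and 44.5 in SCDM, 40.8, 37.0 and 34.4 in SCDM/FGF and 64.6, 67.1 and 62.3 in spheres. It was lowest in FIBCL, by 0.49 from SCDM (log2 difference −0.49, adjusted p = 5.8e-05, under the fold limit) and by a called −1.13 from spheres (adjusted p = 4.46e-08). H2-T24 was at 20.7, 19.3 and 21.3 in FIBCL and 11.6, 11.3 and 16.6 in SCDM (0.61, adjusted p = 0.00213, under the fold limit, or 0.24 with adjusted p = 0.144 without rescaling). H2-T22 and H2-T10, which share 25.0% and 23.3% of their windows with other members, differed by 0.11 (adjusted p = 0.20) and −0.60 (adjusted p = 0.000634), and without rescaling these became −0.27 and −0.96, with H2-T23 at −0.86. H2-M3, which binds formylated peptides, was at 8.11, 7.67 and 8.50 in FIBCL beside 8.59, 9.67 and 10.5 in SCDM (−0.21, adjusted p = 0.151, or −0.56 with adjusted p = 0.00169 without rescaling).

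H2-Bl, annotated as a polymorphic pseudogene, varied widely within 3 of the 4 groups. It was at 1.13, 23.9 and 1.13 in spheres, 8.69, 24.4 and 1.43 in SCDM, 0.941, 1.44 and 0.903 in SCDM/FGF, and 4.58, 28.2 and 12.0 in FIBCL. Replicate 2 was the highest of its group in all 4 groups. FIBCL exceeded SCDM/FGF by 2.63 (SE 1.03, adjusted p = 0.0395), and that call was lost without replicate 2 of FIBCL (2.03, adjusted p = 0.138) and in 7 other alternatives.

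Nlrc5 (chr8:94434356-94527272), the transactivator of class I genes, was at 12.1, 9.68 and 8.97 in spheres, 3.39, 4.04 and 4.25 in SCDM, 7.83, 6.10 and 5.66 in SCDM/FGF, and 9.13, 13.9 and 12.4 in FIBCL. SCDM was lowest and SCDM/FGF next, while FIBCL and spheres overlapped. Nlrc5 rose by 1.37 over SCDM (SE 0.163, adjusted p = 1.33e-05), a 2.59-fold difference on the scale with 1 added. Over SCDM/FGF the difference was 0.76 (adjusted p = 0.00145), under the fold limit. Without rescaling these became 1.02 and 0.48 (adjusted p = 0.000124 and 0.0204). In deposited TPM, FIBCL (7.45 to 11) overlapped SCDM/FGF (5.39 to 7.74).

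Of the 7 peptide supply genes, all but Tap1 fell in FIBCL. Tapbp (chr17:33915899-33929292), the tapasin that holds empty class I molecules at the transporter, was at 173, 165 and 164 in spheres, 164, 148 and 152 in SCDM, 133, 127 and 127 in SCDM/FGF, and 15.5, 14.7 and 13.1 in FIBCL. The highest FIBCL library was far below the lowest of the others. Tapbp fell by 3.34 from SCDM (SE 0.0606, adjusted p = 2.13e-12), 10.1-fold, and the adjusted p was the lowest among the 34 genes in that comparison. Erap1 (chr13:74639568-74693201), the aminopeptidase that trims peptides to length, was at 33.7, 33.8 and 30.9 in spheres, 29.7, 30.8 and 30.1 in SCDM, 26.2, 26.1 and 26.6 in SCDM/FGF, and 3.16, 2.51 and 2.52 in FIBCL, and fell by 3.07 from SCDM (SE 0.0709, adjusted p = 1.29e-11).

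The 3 catalytic subunits of the immunoproteasome fell as well. Psmb8 was at 66.4, 69.4 and 63.3 in spheres, 69.9, 64.2 and 81.3 in SCDM, 77.5, 65.9 and 59.0 in SCDM/FGF, and 10.9, 12.2 and 13.2 in FIBCL. Psmb10 was at 47.4, 59.0 and 56.0 in spheres, 47.9, 47.2 and 40.3 in SCDM, 58.9, 61.9 and 60.1 in SCDM/FGF, and 8.04, 6.74 and 5.42 in FIBCL. Psmb9 was at 21.9, 22.0 and 18.4 in spheres, 18.9, 17.2 and 17.5 in SCDM, 20.3, 15.2 and 16.7 in SCDM/FGF, and 5.96, 5.05 and 6.62 in FIBCL. In each of the 3, the FIBCL libraries were below all 9 others, whose groups overlapped in part. Against SCDM they fell by 2.47 (SE 0.109), 2.59 (SE 0.12) and 1.46 (SE 0.116), with adjusted p of 2.35e-09, 3.74e-09 and 4.08e-07.

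The constitutive subunits that these replace in the proteasome core were not called. Psmb5 was on average 149.7 in SCDM and 159 in FIBCL (log2 difference 0.09, adjusted p = 0.145), Psmb6 was 228 and 229 (0.01, adjusted p = 0.905), and Psmb7 was 113 and 142 (0.33, adjusted p = 0.000407, under the fold limit). The ratio of Psmb8 to Psmb5 within a library was 0.468 to 0.497 in spheres, 0.433 to 0.546 in SCDM, 0.347 to 0.514 in SCDM/FGF and 0.0680 to 0.0817 in FIBCL. Psmb10 to Psmb7 gave 0.345 to 0.554 over the 9 other libraries and 0.0383 to 0.0568 in FIBCL. Of the proteasome activator chains, Psme2 fell by 1.71 (adjusted p = 1.32e-07) and Psme1 differed by −0.93 (adjusted p = 1.23e-07).

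The chains of the peptide transporter parted. Tap2 was at 38.9, 38.9 and 35.0 in spheres, 32.3, 30.6 and 33.5 in SCDM, 38.2, 32.1 and 33.6 in SCDM/FGF, and 13.6, 13.7 and 13.9 in FIBCL, a fall of 1.17 from SCDM (SE 0.0687, adjusted p = 2.91e-08). Tap1 was at 28.7, 27.1 and 28.8 in spheres, 24.1, 23.5 and 27.1 in SCDM, 36.0, 25.4 and 27.6 in SCDM/FGF, and 37.5, 29.0 and 33.3 in FIBCL. It was the peptide supply gene that was not called, and its order depended on the scale. In deposited TPM it was at 30.6, 23.02 and 24.7 in FIBCL, which overlapped SCDM (24.4 to 27.8) and, apart from 1 library, lay below spheres (30.1 to 33.3). On the scaled values, its difference from SCDM was 0.40 (SE 0.122, adjusted p = 0.0119), that from SCDM/FGF 0.17 (adjusted p = 0.241) and that from spheres 0.22 (adjusted p = 0.122). The ratio of Tap1 to Tap2 was 0.697 to 0.943 in the 9 other libraries and 2.11 to 2.76 in FIBCL, and that of Tap1 to Tapbp was 0.147 to 0.271 and 1.97 to 2.55.

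Tap1 (chr17:34187553-34197225) and Psmb9 (chr17:34181987-34187764) are divergent neighbours whose RefSeq start sites are 226 bases apart on opposite strands, and their GENCODE models overlap by 212 bases. They moved apart in FIBCL, by 0.40 and −1.46 from SCDM. The sources do not say whether RSEM counted by strand, so reads from the shared stretch cannot be assigned to either gene.

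**Figure D3:**
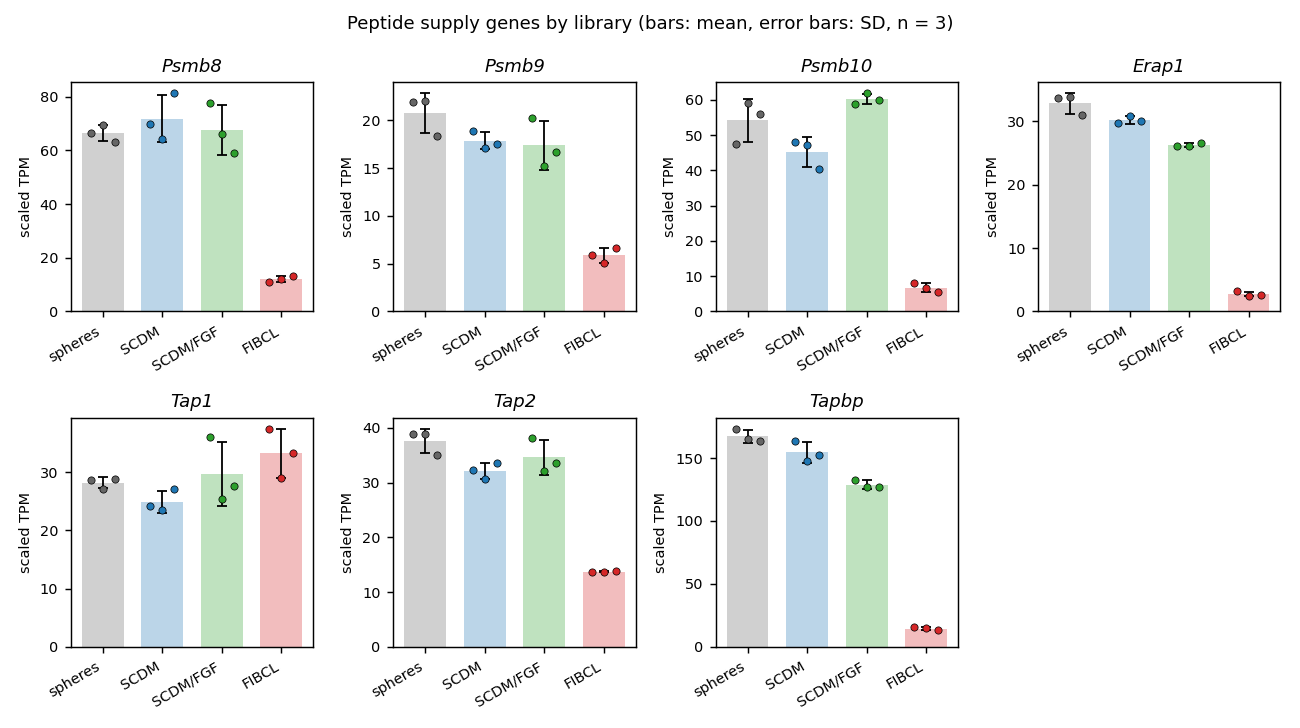
Scaled TPM (vertical axes) of the 7 peptide supply genes in the 4 groups; points are libraries, bars are group means and error bars are SD over 3 libraries. In 6 panels the FIBCL libraries lie below all others, from 14.4 on average for Tapbp to 2.73 for Erap1, and in the Tap1 panel FIBCL overlaps SCDM/FGF and lies just above SCDM and spheres, an order that deposited TPM does not show.

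The falls of these 6 genes were as large against the other groups. Against SCDM/FGF, 0 of 7 rose and 6 fell with a median of −2.38, where 16.1% of all genes fell. Against spheres 0 rose and 6 fell with a median of −2.37, where 15.8% of all genes fell. None of the 7 was called between SCDM and spheres, SCDM/FGF and spheres, or SCDM/FGF and SCDM. Of all genes tested, 12.5%, 12.3% and 9.87% were called there, so 0 of 7 is close to those shares. The medians of the 7 genes were −0.18, −0.12 and −0.04. The sum of the 7 was 396 to 415 in spheres, 361 to 387 in SCDM, 351 to 389.7 in SCDM/FGF and 84.0 to 94.6 in FIBCL. Of 7 further genes of loading and quality control in the endoplasmic reticulum, 0 rose and 1 fell between SCDM and FIBCL: Tapbpl, the tapasin-related editor, fell by 1.81 (adjusted p = 3.47e-07). That count is near the share of all genes that fell, 16.4%. Pdia3 and Calr, the other partners of the loading complex, differed by −0.90 (adjusted p = 1.06e-09) and −0.34 (adjusted p = 1.7e-05), under the fold limit.

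In class II, the beta chain H2-Ab1 (chr17:34257689-34269419) rose the most of the 34 genes in all 3 comparisons with FIBCL. It was at 3.09, 4.07 and 3.14 in spheres, 1.31, 0.770 and 1.03 in SCDM, 2.33, 1.75 and 2.05 in SCDM/FGF, and 59.1, 57.7 and 64.3 in FIBCL. Each FIBCL library was more than 10 times the highest of the 9 others. H2-Ab1 rose by 4.92 over SCDM (SE 0.125, adjusted p = 2.62e-11), which is 30.3-fold on the scale with 1 added. That scale understates the change, from a mean of 1.04 in SCDM to 60.4 in FIBCL. The rise was 4.34 over SCDM/FGF (adjusted p = 7.48e-11) and 3.80 over spheres (adjusted p = 2.27e-10).

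Its partner chain H2-Aa (chr17:34282744-34287823) was low and did not rise with it. H2-Aa was at 3.67, 5.13 and 3.83 in spheres, 2.17, 1.79 and 2.34 in SCDM, 0.415, 0.145 and 0 in SCDM/FGF, and 0.735, 0.366 and 0.188 in FIBCL. FIBCL was below SCDM and spheres and overlapped SCDM/FGF. H2-Aa fell by 1.13 from SCDM (SE 0.177, adjusted p = 0.000132) and by 1.87 from spheres (adjusted p = 2.01e-06). The ratio of H2-Ab1 to H2-Aa in a library was 0.793 to 0.841 in spheres, 0.430 to 0.602 in SCDM, 5.61 and 12 in the 2 SCDM/FGF libraries with H2-Aa above 0, and 80.3 to 341 in FIBCL.

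Of the I-E chains, H2-Eb1 was at 2.70, 2.92 and 2.23 in spheres, 1.54, 0.867 and 1.04 in SCDM, 0.961, 0.966 and 0.882 in SCDM/FGF, and 2.87, 1.40 and 2.45 in FIBCL, and was called in none of the 6 comparisons on this scale (0.57 from SCDM, adjusted p = 0.0123). H2-Ea, the I-E alpha chain, which the H2 haplotype of C57Bl6 mice does not express, was listed at 0 in all 12 libraries. GENCODE M21 gives H2-Ab1 several models: coding ones from 34263209 and a noncoding one from 34257689. The table holds 1 value per gene, so which model carries the FIBCL signal was not tested. None of the 75-base windows of the H2-Ab1 transcript occurs in another of these genes.

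**Figure D4:**
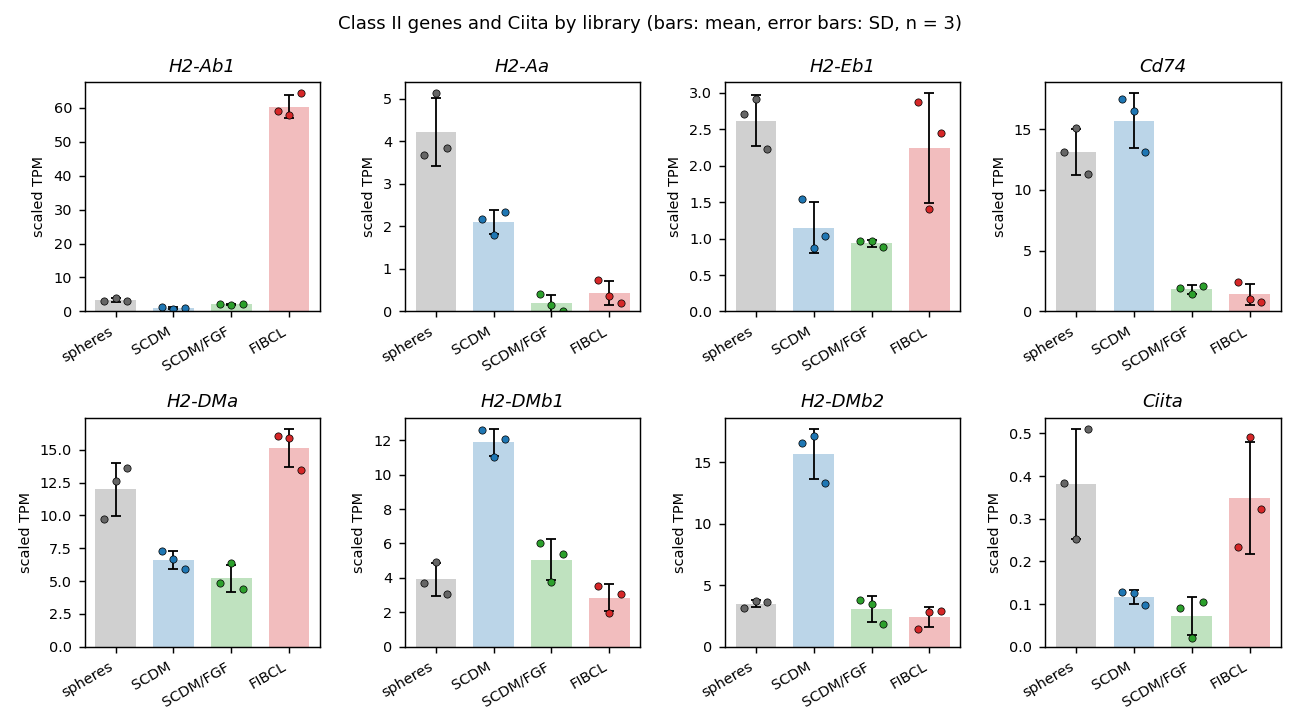
Scaled TPM (vertical axes) of 7 class II genes and the transactivator Ciita in the 4 groups; points are libraries, bars are group means and error bars are SD over 3 libraries. H2-Ab1 averages 60.4 in FIBCL and 3.43 or less elsewhere, Cd74 is high in spheres and SCDM, and H2-DMb1 and H2-DMb2 are highest in SCDM.

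Cd74, the invariant chain that occupies the groove of new class II molecules and steers them to endosomes, was at 13.1, 15.1 and 11.3 in spheres, 17.4, 16.5 and 13.2 in SCDM, 1.91, 1.42 and 2.13 in SCDM/FGF, and 2.40, 1.05 and 0.753 in FIBCL. The libraries fell into 2 levels, with spheres and SCDM overlapping at the upper and SCDM/FGF and FIBCL at the lower. Cd74 fell by 2.85 from SCDM (SE 0.222, adjusted p = 3.35e-07) and by 2.61 from spheres (adjusted p = 7.83e-07), and differed from SCDM/FGF by −0.28 (adjusted p = 0.272). FIBCL therefore had the highest H2-Ab1 and, with SCDM/FGF, the lowest Cd74: H2-Ab1 over Cd74 was 0.236 to 0.279 in spheres, 0.0467 to 0.0785 in SCDM, 0.961 to 1.23 in SCDM/FGF and 24.6 to 85.3 in FIBCL.

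The H2-DM molecule, which exchanges the Cd74 fragment for peptide, also had chains that parted between FIBCL and SCDM. The alpha chain H2-DMa was at 9.74, 12.6 and 13.6 in spheres, 7.27, 6.70 and 5.90 in SCDM, 4.86, 6.35 and 4.43 in SCDM/FGF, and 16.0, 15.9 and 13.5 in FIBCL. It rose by 1.08 over SCDM (adjusted p = 3.21e-05) and by 1.39 over SCDM/FGF (adjusted p = 4.15e-06), and the first became 0.72 without rescaling, under the fold limit. The beta chain H2-DMb1 was at 3.71, 4.95 and 3.07 in spheres, 12.6, 11.0 and 12.0 in SCDM, 6.05, 3.76 and 5.37 in SCDM/FGF, and 3.51, 1.97 and 3.05 in FIBCL. H2-DMb2 was at 3.16, 3.69 and 3.65, at 16.5, 17.2 and 13.3, at 3.78, 3.49 and 1.84, and at 1.46, 2.80 and 2.91 in the same order. Both beta chains were highest in SCDM and fell from SCDM to FIBCL, by 1.76 (SE 0.194, adjusted p = 6.7e-06) and 2.32 (SE 0.219, adjusted p = 1.81e-06). They differed in FIBCL by −0.66 and −0.25 from SCDM/FGF and by −0.36 and −0.44 from spheres, under the fold limit. H2-DMa differed from spheres by 0.32, also under that limit. H2-DMb1 and H2-DMb2 share 19.1% and 18.0% of their windows with each other, so the division of reads between them is uncertain.

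Ciita, the master transactivator of class II genes, stayed below the limit for testing. It was at 0.384, 0.252 and 0.510 in spheres, 0.128, 0.125 and 0.0974 in SCDM, 0.0911, 0.0208 and 0.105 in SCDM/FGF, and 0.233, 0.492 and 0.323 in FIBCL. FIBCL and spheres overlapped and both lay above the control media, and no library reached 1 TPM. Among 7 factors that bind class II promoters, 0 rose and 1 fell between SCDM and FIBCL: Rfx5 fell by 1.53 (adjusted p = 2.44e-08). Of 6 genes of endosomal processing, 2 rose and 3 fell. Of all genes, 13.1% rose and 16.4% fell in that comparison, so the count of the promoter factors is near that share. Cathepsin S (Ctss), which degrades Cd74 in antigen-presenting cells, went from 182, 174 and 187 in SCDM to 1.10, 1.24 and 1.10 in FIBCL and fell by 6.40 (adjusted p = 1.14e-14), while Ctsb and Ctsl rose by 2.64 and 1.94 (adjusted p = 2.93e-12 and 1.27e-11).

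Compared directly, class I was far more abundant than class II in every library. The class I sum exceeded the class II sum 149 to 169-fold in spheres, 70.6 to 92.8-fold in SCDM, 199 to 238-fold in SCDM/FGF and 58.4 to 66.1-fold in FIBCL. The class II sum was highest in FIBCL, at 81.5 to 87.1, against 39.2 to 48.4 in spheres, 49.2 to 59.1 in SCDM and 16.9 to 20.4 in SCDM/FGF, and that order rested on 1 gene. H2-Ab1 was 68.4 to 73.8% of the class II sum in FIBCL, 7.68 to 8.40% in spheres, 1.40 to 2.21% in SCDM and 9.59 to 12.1% in SCDM/FGF. Without it, the sum was 36.1 to 44.4 in spheres, 48.1 to 57.8 in SCDM, 14.9 to 18.0 in SCDM/FGF and 22.8 to 27.3 in FIBCL, so that FIBCL lay between SCDM/FGF and spheres, with no overlap on this scale. In deposited TPM, FIBCL (16.97 to 22.3) overlapped SCDM/FGF (14.2 to 17.8).

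Against SCDM/FGF, 7 of 34 genes tested were higher and 7 lower in FIBCL, where 28.1% of all genes were called. Class I gave 5 higher (H2-D1, H2-Q5, H2-Q6, H2-Bl and H2-T-ps) and 1 lower (H2-K2) of 18, with a median of 0.37, and class II gave 2 higher (H2-Ab1 and H2-DMa) and 0 lower of 7, with a median of 0.27, beside −0.06 for all genes. The pseudogenes H2-T-ps and H2-K2 differed by 1.07 and −1.09. H2-Q10, which rose by 1.08 over SCDM, differed from SCDM/FGF by −0.89 (adjusted p = 0.00059), under the fold limit, or by a called −1.09 without rescaling. Without rescaling, class I gave 2 higher and 2 lower and class II again 2 and 0, where 8.80% of all genes were called higher and 20.6% lower, over a median of −0.31 for all genes. These comparisons share the FIBCL libraries and are not independent.

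Against spheres, FIBCL had 1 gene higher (H2-Ab1) and 10 lower of 34, where 28.3% of all genes were called. The lower ones were 2 class I genes, H2-Q4 and H2-T23, 2 class II genes, Cd74 and H2-Aa, and the 6 peptide supply genes. The class I median was −0.43 and the class II median −0.36, beside −0.07 for all genes. Without rescaling, where the median of all genes was −0.51 and 7.87% of all genes were called higher and 26.9% lower, 1 member was higher and 16 were lower. The class I genes among them went from 2 to 7 lower: B2m, H2-Q1, H2-Q4, H2-Q6, H2-Q7, H2-T10 and H2-T23.

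The control media were then compared with the spheres they came from. In SCDM, 2 of 34 genes were higher and 7 lower than in spheres, where 12.5% of all genes were called, 6.99% higher and 5.49% lower. The 5 class I genes that fell were H2-Q1, H2-Q4, H2-Q5, H2-Q6 and H2-Q7, by 1.15 to 2.51, and H2-D1 (−0.97, adjusted p = 6.47e-08), H2-K1 (−0.80, adjusted p = 9.22e-07) and B2m (−0.50, adjusted p = 2.54e-05) were lower by less than the fold limit. The class I median was −0.72, beside −0.01 for all genes. Without rescaling, 8 class I genes were called lower, H2-D1 among them at −1.12, where 6.95% of all genes were lower. Nlrc5 fell by 1.20 (adjusted p = 8.98e-05). In class II, H2-DMb1 rose by 1.41 (adjusted p = 9.64e-05) and H2-DMb2 by 1.88 (adjusted p = 2.55e-05), H2-Ab1 fell by 1.12 (adjusted p = 1.77e-05), and Cd74 differed by 0.24 (adjusted p = 0.401).

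In SCDM/FGF, 0 of 34 genes were higher and 9 lower than in spheres, where 12.3% of all genes were called, 7.48% higher and 4.79% lower. The 6 class I genes were H2-Q1, H2-Q4, H2-Q5, H2-Q6, H2-Q7 and H2-T-ps, which fell by 1.42 to 2.40. The 3 class II genes were Cd74, which fell by 2.32 (adjusted p = 5.46e-06), H2-Aa, by 2.14 (adjusted p = 1.74e-06), and H2-DMa, by 1.07 (adjusted p = 8.21e-05). Without rescaling, 7 class I genes were lower, with H2-T23 added at −1.01, and so was H2-Eb1, at −1.06, where 6.93% of all genes were lower. The H2-DMa call was lost without SCDM/FGF replicate 3 (−0.97) and without spheres replicate 3 (−0.97).

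The effect of added bFGF was addressed by comparing SCDM/FGF with SCDM. Of 34 genes, 1 was higher (a class I gene) and 4 lower in SCDM/FGF, where 9.87% of all genes were called, 5.79% higher and 4.07% lower. All 4 lower genes were class II genes: Cd74 fell by 2.56 (SE 0.222, adjusted p = 2.77e-06), H2-DMb2 by 2.08 (SE 0.219, adjusted p = 1.42e-05), H2-Aa by 1.40 (SE 0.177, adjusted p = 6.28e-05) and H2-DMb1 by 1.10 (SE 0.194, adjusted p = 0.000712). The H2-DMb1 call was lost without SCDM/FGF replicate 2 (−0.94). The gene that rose was H2-Q10, a class I gene known for a secreted product in liver, at 4.69, 5.80 and 5.49 in SCDM/FGF and 0.550, 0.915 and 0.429 in SCDM, by 1.96 (SE 0.168, adjusted p = 2.51e-06). The median was −0.10 for class I and −1.10 for class II, beside −0.01 for all genes. H2-K1 (0.07, adjusted p = 0.401) and H2-T23 (−0.14, adjusted p = 0.14) did not pass the test, and H2-D1 was higher by 0.27 (adjusted p = 0.00188).

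**Figure D5:**
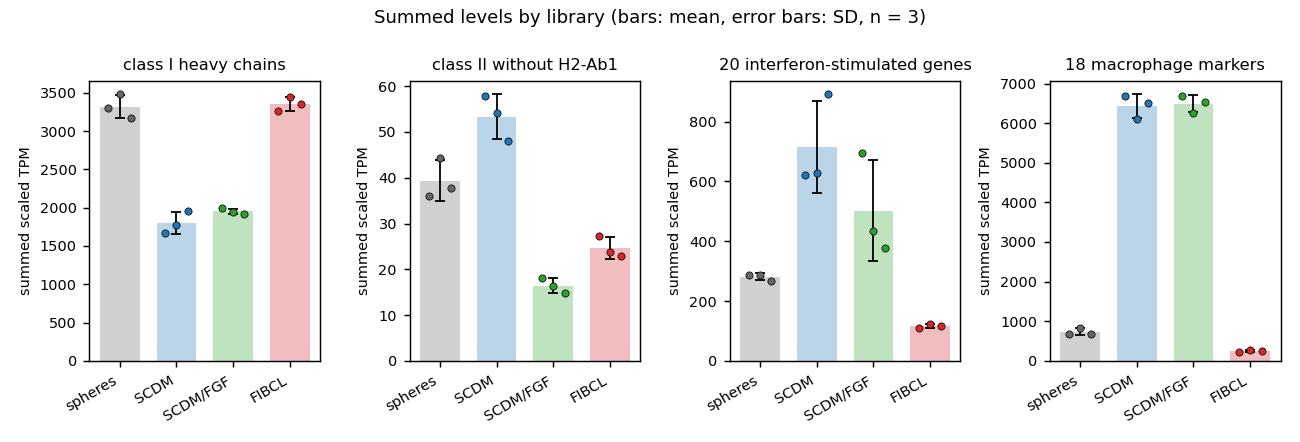
Summed scaled TPM (vertical axes) in the 4 groups of the class I heavy chains, the class II genes without H2-Ab1, 20 interferon-stimulated genes and 18 macrophage markers; points are libraries, bars are group means and error bars are SD over 3 libraries. Heavy chains are high in spheres and FIBCL (in deposited TPM FIBCL is below spheres), while interferon-stimulated genes and macrophage markers are highest in the control media and lowest in FIBCL.

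Levels of other cell types and of interferon-responsive genes moved with some of these results. Macrophage markers were 6101 to 6678 in SCDM and 6267 to 6683 in SCDM/FGF, which overlapped, while Cd74 was 13.2 to 17.4 and 1.42 to 2.13. That sum is mostly lysozyme, Lyz2 (3606 to 4039 in these 6 libraries), and single markers differed between the media, with 1 of 18 called higher and 3 lower in SCDM/FGF. Of all genes, 5.79% were higher and 4.07% lower in that comparison. The 3 lower markers moved in the same direction as Cd74 between the media. Adgre1 fell from 189 to 221 in SCDM to 82.2 to 104 in SCDM/FGF (by 1.20, adjusted p = 7.6e-06), Aif1 from 34.9 to 46.6 to 13.1 to 20.5 (by 1.27, adjusted p = 0.000582) and Cx3cr1 from 26.2 to 32.7 to 8.51 to 13.8 (by 1.31, adjusted p = 2.58e-05). Mrc1 was the marker that rose, from 43.4 to 101 on average. From spheres to SCDM, 17 of 18 markers were called higher, against 6.99% of all genes. In that comparison Cd74 differed by 0.24 (adjusted p = 0.401). Of the 7 class II genes tested, H2-DMb1 and H2-DMb2 were called higher (1.41 and 1.88) and H2-Ab1 lower (−1.12). Adgre1 averaged 12.5 in spheres and 205 in SCDM, and Cd74 averaged 13.1 and 15.7. All 18 markers were at 1 or more in both media. In FIBCL, 9 of 18 were at 1 or more and 0 were at 0 in all 3 libraries, and the markers were uneven. Csf1r was 0.552, 0.303 and 0.175, C1qa was 0.576, 0.404 and 0.202, and Ptprc was 0.968, 0.769 and 0.579. Cd68, a lysosomal protein, made up most of the FIBCL sum at 156, 181 and 169, where it was called higher than in spheres (2.14, adjusted p = 1.69e-09) and differed from SCDM by −0.27 (adjusted p = 0.0182). Cd14 was at 18.8, 20.6 and 19.0 in FIBCL and 13.6 to 15.9 in spheres. Of 8 dendritic cell markers, summing to 6.19 to 8.88 in FIBCL and 19.1 to 43.9 elsewhere, Batf3 carried most of the difference (2.54 on average in FIBCL, 14.2 to 30.9 in the other groups). Cd209a was at 0 in every library, and Xcr1 and Clec9a were at 0 in FIBCL and at most 0.513 elsewhere. Zbtb46 was higher in FIBCL (4.31 to 4.69) than in SCDM/FGF (1.98 to 2.41) and lower than in SCDM and spheres. Of 7 endothelial markers, summing to 14.0 to 14.7 in FIBCL, 45.3 to 53.6 in SCDM, 275 to 316 in SCDM/FGF and 113 to 115 in spheres, Emcn carried most of the sum outside FIBCL, where it was at 0. Kdr was highest in FIBCL (10.1 to 10.7, against at most 1.90 elsewhere), and Pecam1 was at most 2.24 in any library. Of 7 T and NK cell markers, only Cd4 reached 1 in any library (up to 19.7, in SCDM/FGF), and Cd3e and Ncr1 were at 0 in all 12. Among B cell markers, Cd79b and Ighm passed the limit for testing. Both were lower in SCDM/FGF and FIBCL than in SCDM, as was Cd74. Class II genes were divided beside them. Both markers were called higher in SCDM than in spheres, as were H2-DMb1 (1.41) and H2-DMb2 (1.88). H2-Ab1 fell there and Cd74 was not called. Against SCDM, H2-DMb1, H2-DMb2 and H2-Aa fell in SCDM/FGF (by 1.10, 2.08 and 1.40) and in FIBCL (by 1.76, 2.32 and 1.13). In FIBCL, H2-Ab1 and H2-DMa rose over SCDM. Pax5, below the limit for testing, was at 0.618 to 0.907 in FIBCL and at most 0.270 elsewhere. Ighm was at 2.84 to 3.93 in SCDM, 0.0519 to 0.105 in SCDM/FGF, 0 to 0.552 in FIBCL and 0.603 to 1.18 in spheres, and was called lower in both SCDM/FGF (−1.98, adjusted p = 3.27e-06) and FIBCL (−1.79, adjusted p = 2.39e-06) than in SCDM. Cd79b was at 2.47 to 3.16 in SCDM and fell by 1.85 in FIBCL (adjusted p = 5.51e-08), and it differed by −0.88 in SCDM/FGF (adjusted p = 9.32e-05), under the fold limit. The part of these cells in the differences between media was not tested.

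The 20 interferon-stimulated genes all fell in FIBCL against SCDM, 0 higher and 20 lower with a median of −2.86, and 0 higher and 19 lower against SCDM/FGF and 0 and 17 against spheres. Of all genes, 16.4%, 16.1% and 15.8% were lower in these comparisons. Within the control media 2 libraries stood apart on this list. Isg15 was at 108, 37.1 and 32.9 in SCDM/FGF and at 81.7, 81.5 and 138 in SCDM, and the list sum spanned 377 to 695 and 622 to 891. SCDM/FGF replicate 1, the high one, was also the highest of its group for Psmb8, Psmb9, Tap1, Tap2 and Nlrc5. Without it, 17 of the 20 genes were called lower against SCDM/FGF, and without SCDM replicate 3 all 20 were still called lower against SCDM. Irf1, which binds class I and peptide supply promoters, was at 26.2, 24.3 and 22.4 in SCDM and 13.1, 12.1 and 12.2 in FIBCL (−0.91, adjusted p = 8.46e-08, under the fold limit). Between FIBCL and SCDM, the 6 peptide supply genes that fell moved in the same direction as this list, and H2-D1, H2-Q6, Nlrc5 and H2-Ab1 were higher in FIBCL. Against spheres H2-Q6 was lower, as this list was, by less than the fold limit (−0.87, adjusted p = 0.000101) or by a called −1.38 without rescaling, and H2-D1 and Nlrc5 were not called there on either scale. Whether interferon signalling had a part in either was not tested.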

How the data were processed

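Poly(A) RNA was sequenced in 12 libraries (paired 150-base reads). Per the study's methods, SeqPrep and Sickle served for trimming, TopHat for alignment and RSEM for quantification, and the submitters' processing notes also name Cufflinks. The authors deposited TPM with 2 decimals for 55487 genes. The genome build is not given in the sources used here. TPM keeps no read number, so depth is unknown and no counting interval was computed. The listed TPM summed to 899295 to 911076 in FIBCL and 982067 to 994845 elsewhere.

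Groups came from the sample labels. A gene was kept if 3 or more of the 12 libraries reached 1 TPM (16016 genes). Each library was divided by 1 factor, a trimmed mean (30% off each end) of its log2 ratios to the average of all libraries. It rested on the 8434 genes that reached 5 TPM throughout, and averaged, on the log2 scale, −0.35 for FIBCL, 0.04 for SCDM, −0.05 for SCDM/FGF and 0.19 for spheres. Log2(scaled TPM + 1) was fitted in limma 3.58.1 (R 4.3.3), with a variance trend, in 1 model of 4 groups with no covariate, and p-values were adjusted by Benjamini-Hochberg over all genes in each of 6 comparisons. The fit was tested on simulated data first. The authors' edgeR test needs counts and was not repeated.

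The members, the gene lists and the thresholds were chosen with earlier results of these data known. Every member could be named, and other genes only from those lists. No library pair held identical values. Positions are from GENCODE M21 (GRCm38), which held all 56 identifiers, 55 with the same symbol, and sequences are from RefSeq (GRCm38.p6). Shared 75-base windows were counted between annotated transcripts. Python 3.11.15 with pandas 2.3.3 wrote the tables, and matplotlib 3.10.9 the plots. Alternatives covered scaling, filter, pseudocount, libraries, variance model, replicate block and call rule. Some items of the context lists are not reported here.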

Additional observations from a re-analysis of the deposited data

Results flagged for a closer look

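For 3 genes, the fitted differences of the control media from spheres had opposite signs, and the difference between the media was itself called by limma (Benjamini-Hochberg adjusted p). In Cd74 and H2-DMb2, 1 of the media did not pass the test against spheres (adjusted p = 0.401 for SCDM in Cd74 and 0.50 for SCDM/FGF in H2-DMb2), and in H2-Q10 both differences were under the fold limit. For Cd74, SCDM minus spheres was 0.24, SCDM/FGF minus spheres was −2.32, and the media differed by −2.56 (adjusted p = 2.77e-06). For H2-DMb2 these were 1.88 and −0.19, and the media differed by −2.08 (adjusted p = 1.42e-05). For H2-Q10 they were −0.97 and 0.99, and the media differed by 1.96 (adjusted p = 2.51e-06). In each of the 3, the 3 SCDM libraries did not overlap the 3 SCDM/FGF libraries. The cause was not tested.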

How the results depend on the processing

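TPM hides depth, so the precision of low genes such as H2-Aa, Ciita and H2-Q10 is known only from 3 libraries. The counts of genes called in the 6 comparisons (FIBCL against SCDM, SCDM/FGF and spheres, then SCDM and SCDM/FGF against spheres, then SCDM/FGF against SCDM) were 18, 14, 11, 9, 9 and 5. With an adjusted p under 0.05 alone they were 30, 29, 23, 21, 24 and 17 of 34, where 71.7, 70.6, 71.6, 50.3, 50.4 and 43.2% of all genes passed. With a log2 difference of at least 1.5 they were 10, 8, 8, 4, 4 and 3, where 16.1 to 18.1% of all genes passed in the FIBCL comparisons and 4.91 to 6.26% in the others. Without rescaling, FIBCL against spheres gave 17 (34.8% of all genes), and with a mean of at least 5 TPM, SCDM/FGF against SCDM gave 3, as fewer genes were tested. Leaving out single libraries gave 17 to 19, 12 to 14, 11 to 13, 9 to 10, 8 to 11 and 4 to 6. The class I median between FIBCL and SCDM, 0.41, was 0.041 without rescaling and 0.11 with no filter, which adds genes near 0, and ranged from 0.19 (without FIBCL replicate 2) to 0.43 when single libraries were left out. The class II median, −1.13, was −0.0038 with no filter, −1.76 with a mean of at least 5 TPM, −2.06 with a pseudocount of 0.1 and −1.52 with 0.5, and ranged from −1.28 to −1.01 when single libraries were left out. With the call rule kept, 56 of 66 calls of single genes held in every other alternative in which the gene was tested and 10 were lost in at least 1, all named above except that of H2-T-ps against SCDM/FGF (0.78 without rescaling and 0.89 without SCDM/FGF replicate 3) and H2-K2 against SCDM/FGF (−0.91 without FIBCL replicate 2). Between FIBCL and SCDM, 4 uncalled differences changed sign: H2-Bl to −0.29 (up to 1.40, without SCDM replicate 2) and H2-Q4 to 0.035 (down to −0.041, without SCDM replicate 1) without SCDM replicate 3, and H2-Q1 to −0.052 and H2-T22 to −0.27 without rescaling. Another 3 became calls with the call rule kept: H2-K2 (−1.19 without rescaling, −1.28 and −1.10 with pseudocounts of 0.1 and 0.5, −1.14 without FIBCL replicate 3 and −1.03 without SCDM replicate 1), H2-M5 (−1.45 with a pseudocount of 0.1) and H2-Ke6 (−1.25 without rescaling). Chosen after seeing the data, leaving out SCDM/FGF replicate 1 took the interferon-stimulated genes called lower in FIBCL against SCDM/FGF from 19 to 17 and left those against SCDM and spheres at 20 and 17; leaving out SCDM replicate 3 changed none of these counts. The causes were not tested beyond those stated.

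Over all genes tested, 0 of 18 same-numbered pairs of libraries had deviations from their group means that correlated over 0.1 (−0.12 to 0.098). Pairs with different numbers gave −0.072 to 0.12. Of 12 libraries, 6 correlated best with their own number. These values cannot show whether same-numbered libraries shared animals, and H2-Bl was highest in replicate 2 in all 4 groups. With a replicate block the counts were 18, 14, 11, 9, 9 and 6.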

Other observations

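Class I-like molecules outside the H2- symbols also divided. Of 8 tested, 4 rose and 3 fell in FIBCL against SCDM, where 13.1% of all genes rose and 16.4% fell. Raet1e, a ligand of the NK cell receptor NKG2D, was at 56.5, 57.8 and 61.9 in FIBCL and 1.71, 1.76 and 1.73 in SCDM and rose by 4.45 (limma, adjusted p = 1.87e-11). Cd1d1, which presents lipids, was at 13.2, 13.5 and 13.0 in FIBCL and 2.98, 2.92 and 2.65 in SCDM and rose by 1.89 (adjusted p = 2.65e-06). Fcgrt, the neonatal Fc receptor heavy chain, was at 15.7, 15.4 and 17.5 in FIBCL and 177, 163 and 157 in SCDM and fell by 3.28 (adjusted p = 1.41e-12). Hfe, which regulates iron uptake, fell by 2.75 (adjusted p = 1.04e-08), and Mr1, which presents vitamin B metabolites, by 1.24 (adjusted p = 3.34e-09). As background, Cd1d1, Fcgrt, Hfe and Mr1 pair with B2m, and Raet1e does not.

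Of 5 costimulatory genes tested, 1 rose (Cd40) and 1 fell (Cd86) in FIBCL against SCDM. Of all genes, 13.1% rose and 16.4% fell there, so these counts are near those shares. Cd40 was at 288, 277 and 284 in FIBCL and 4.47 to 7.79 in the 9 other libraries, and rose by 5.30 over SCDM (adjusted p = 4.2e-11). Cd86 was at 2.45, 2.78 and 2.47 in SCDM and 0.0613, 0.101 and 0.108 in FIBCL, and fell by 1.71 (adjusted p = 3.78e-08).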
